A study of Mus musculus with 12 samples.

Results

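Genes that define the B and T lymphocyte lineages were examined in dendritic cells (DCs) sorted from mouse spleen, as a measure of the lymphocyte RNA held by these samples. The 8 symbols were Cd79a, Cd79b, Ms4a1 and Pax5 for B cells and Cd3d, Cd3e, Cd3g and Lck for T cells. Every probe set annotated to just 1 of these symbols was taken. This gave 9 of the 45101 probe sets, which covered 7 of the 8 genes, out of 18194 genes named on the array. No probe set carried Lck alone in the annotation used, so the level of Lck was not analysed here. Ms4a1 and Pax5 had 2 probe sets each, and the 2 probe sets of a gene share their target and are not independent. They are called the brighter and the dimmer one here.

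Alymphoplasia (aly) mice carry a mutated Map3k14, the gene of the kinase NIK, and lack lymph nodes. Their heterozygous littermates, called wild type (WT) here, carry 1 copy of the same allele, so no group was free of it. Mice of each genotype were left untreated or received an intraperitoneal injection of LPS (25 µg) together with the agonistic anti-CD40 antibody FGK4.5 (100 µg), and DCs were taken after 6 hours. There were 3 arrays in each of the 4 groups. For 1 array the splenic DCs of 3 mice were pooled, after selection of CD11c+ cells on beads and a flow sort. The sources used here give neither age nor sex of the mice.

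B cells are recognised by their antigen receptor, in which Cd79a and Cd79b (Ig-alpha and Ig-beta) are the signalling chains beside the membrane immunoglobulin. Ms4a1 encodes CD20, a B cell surface protein, and Pax5 is the transcription factor that commits progenitors to the B lineage. The T cell receptor signals through the invariant CD3 chains encoded by Cd3d, Cd3e and Cd3g, and the kinase Lck phosphorylates these chains. NIK acts downstream of CD40 and of the receptor for BAFF, a survival factor of B cells, so that lymphocytes as well as DCs depend on it. A splenic CD11c gate can also hold plasmacytoid DCs, natural killer cells and some activated lymphocytes, several of which transcribe a part of these genes.

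The sequences before the start sites are shown for the B cell gene Cd79a and for the 3 CD3 genes, because the CD3 genes lie side by side on chromosome 9 and were read below the 40th percentile of most arrays. Promoter windows of 250 bases before and 50 bases after the start were available for 6 of the 8 genes (RefSeq, GRCm38.p6). Capitals mark the Ets-type motif AGGAAGT on either strand (as ACTTCCT when read on the other strand), which was present in 9.35% of 32851 promoter windows of the same length.
Cd79a promoter, chr7:24897247-24897546, + strand: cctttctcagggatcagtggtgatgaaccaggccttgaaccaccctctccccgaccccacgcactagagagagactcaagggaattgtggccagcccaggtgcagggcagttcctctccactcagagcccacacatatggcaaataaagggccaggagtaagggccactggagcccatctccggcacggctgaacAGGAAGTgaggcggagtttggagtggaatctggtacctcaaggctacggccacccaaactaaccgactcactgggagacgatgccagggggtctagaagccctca
Cd3d promoter, chr9:44981536-44981835, + strand: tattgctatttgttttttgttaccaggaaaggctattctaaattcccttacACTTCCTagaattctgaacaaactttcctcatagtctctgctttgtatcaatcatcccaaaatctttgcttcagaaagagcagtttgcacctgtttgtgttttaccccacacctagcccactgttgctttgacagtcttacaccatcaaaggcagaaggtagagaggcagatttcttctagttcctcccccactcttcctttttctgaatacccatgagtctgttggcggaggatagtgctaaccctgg
Cd3e promoter, chr9:45009562-45009861, - strand: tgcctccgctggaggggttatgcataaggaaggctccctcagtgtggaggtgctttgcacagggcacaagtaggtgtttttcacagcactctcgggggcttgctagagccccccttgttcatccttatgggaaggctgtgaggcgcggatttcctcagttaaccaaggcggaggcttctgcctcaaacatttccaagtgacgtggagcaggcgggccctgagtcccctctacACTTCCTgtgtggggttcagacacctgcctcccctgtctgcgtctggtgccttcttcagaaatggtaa
Cd3g promoter, chr9:44980382-44980681, - strand: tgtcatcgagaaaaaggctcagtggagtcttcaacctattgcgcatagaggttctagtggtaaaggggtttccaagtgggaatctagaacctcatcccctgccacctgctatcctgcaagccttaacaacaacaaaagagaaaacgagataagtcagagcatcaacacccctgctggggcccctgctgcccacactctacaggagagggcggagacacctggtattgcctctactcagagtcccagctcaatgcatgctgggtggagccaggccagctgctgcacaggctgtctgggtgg
The motif was found in Cd79a, Cd3d, Cd3e and Lck and was not found in the windows of Cd3g and Pax5. The E-box CAGGTG, or its reverse complement CACCTG, does not overlap these Ets matches and was present in 20.2% of all windows. It was found in Cd79a, Lck and all 3 CD3 genes, with 2 matches in the 1 window of Cd3g. Lck had 2 windows, and each held 1 match of either motif, whereas the shares are per window. These matches describe the letters of the windows and do not show that a factor binds there. In the RefSeq gene order no gene lies between Cd3g and Cd3d or between Cd3d and Cd3e. Cd79b is on chromosome 11, as is Map3k14, with 43 protein-coding genes between them. DNA flanking the aly allele therefore cannot be told apart from genotype for Cd79b.

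The arrays differed in quality by genotype. The mean log2 ratio of 3' over 5' control probe sets was 1.37 to 1.83 on WT and 2.17 to 5.66 on aly arrays, and the value of 5.66 belonged to treated aly replicate 1. Low readings were higher on aly arrays, whose 40th percentile was 17.6 to 26.9 in untreated and 14.9 to 34.8 in treated samples, against 14.2 to 16.7 and 14.1 to 15.5 in WT. Poly-A spike-in controls averaged 4.29 to 19.8 for replicate 1, and 50.7 to 460 for replicates 2 and 3, and this split, which the labels do not name, was used as a technical batch that holds all 4 groups. The part of these differences in readings below the filter was not tested.

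Cd3d and Cd3e exceeded the 40th percentile of the array in 2 samples each and Cd3g in 4. Intensities are given in the linear units of the deposited table, in which the median of an array was 21.5 to 53.4. Cd3d read 1.3, 1.3 and 1.7 on untreated WT replicates 1 to 3 and 1.3, 6.7 and 4.2 on treated WT replicates. In aly it read 8.7, 14.4 and 105.1 on the untreated and 3.5, 17 and 1.5 on the treated arrays. The value of 105.1 on untreated aly replicate 3 stood apart from every other reading of Cd3d. Cd3e read 7.4, 1.7 and 4.7 (WT untreated), 1.6, 8.5 and 4.2 (WT treated), 5.5, 5.5 and 12 (aly untreated) and 14.4, 22.4 and 51.2 (aly treated). Here the treated aly arrays were the highest, and all arrays of the other groups were at or below 12. Cd3g read 10.9, 2.4 and 12.2 (WT untreated), 12.2, 1.2 and 2.9 (WT treated), 28.9, 4.3 and 46.7 (aly untreated) and 2.1, 22.6 and 26.1 (aly treated). The arrays with the highest reading thus differed between the chains, with untreated aly replicate 3 highest for Cd3d and Cd3g and treated aly replicate 3 highest for Cd3e.

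Among the B cell genes, Cd79b and Ms4a1 exceeded the 40th percentile on all 12 arrays, Cd79a on 10, and the brighter and dimmer probe sets of Pax5 on 9 and 0. Cd79b, the Ig-beta chain, read 296.1, 165.7 and 299.6 on untreated WT arrays and 86.6, 136.8 and 43.7 on treated WT arrays. It read 379.1, 196 and 382.7 on untreated aly arrays and 102, 153.7 and 209.4 on treated aly arrays. In WT every treated array was below every untreated array, whereas in aly treated replicate 3 was above untreated replicate 2. Its partner Cd79a read 32.3, 30.2 and 50.3 (WT untreated), 34.4, 48.8 and 4.6 (WT treated), 77.1, 88.5 and 22.3 (aly untreated) and 48.3, 43 and 53.8 (aly treated). All groups of Cd79a overlapped, and the low values were those of treated WT replicate 3 and untreated aly replicate 3.

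Ms4a1 (CD20) was read by 2 probe sets. The brighter read 484.7, 282.1 and 931.1 (WT untreated), 344.3, 355.6 and 183.7 (WT treated), 282.2, 253.9 and 464.3 (aly untreated) and 96.8, 169.2 and 380.6 (aly treated). The dimmer read 241.3, 108.7 and 294.8 in untreated WT, 103.7, 171 and 72 in treated WT, 82.9, 77.7 and 140.5 in untreated aly, and 40.4, 90.9 and 212 in treated aly samples. For each of them the highest array was untreated WT replicate 3 and the lowest was treated aly replicate 1, and no pair of groups was separated. Pax5 read 21.3, 3.7 and 45.8 (WT untreated), 29, 4.5 and 27.6 (WT treated), 31.2, 38.4 and 22.7 (aly untreated) and 97.3, 25.4 and 20.2 (aly treated) on the brighter probe set. The dimmer one read 0.9 to 19 over all 12 arrays. The plot of intensities by array shows all 9 probe sets.

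**Figure D1:**
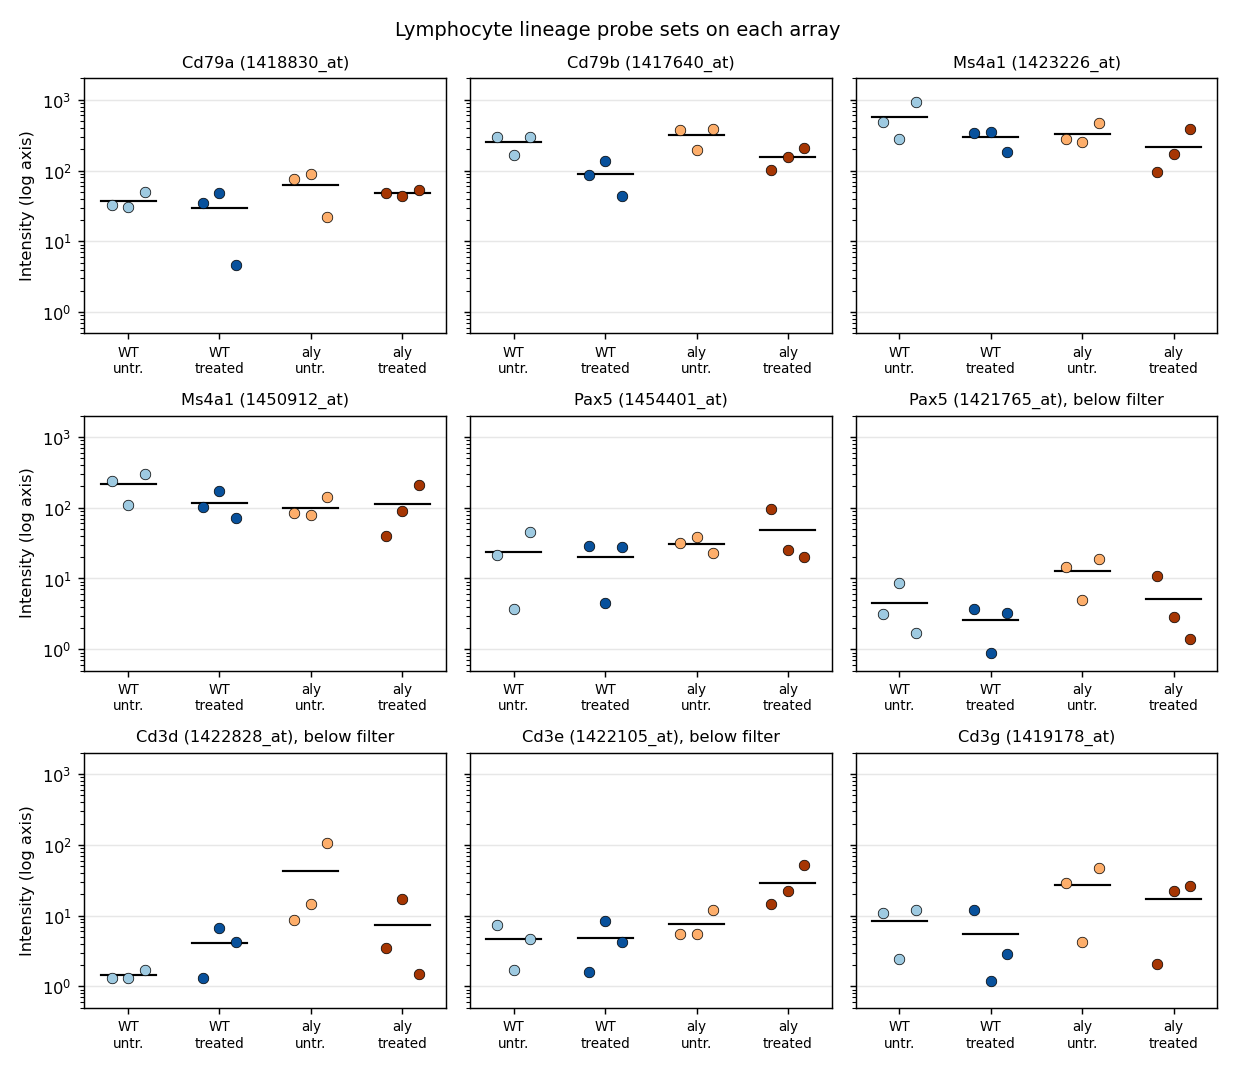
Intensity (log axis, linear units of the deposited table) of each lymphocyte lineage probe set on the 3 arrays of each group, with replicates 1 to 3 from left to right and the group mean as a bar. Cd79b is the only probe set whose treated WT arrays (43.7 to 136.8) all lie below the untreated WT arrays (165.7 to 299.6), while Cd3d and Cd3e are at or below 22.4 on every array but 1 each.

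The position of a reading among all probe sets of its own array is given as a percentile. Probe affinity enters this position, so it describes each probe set and does not order the genes. Cd3d stood at a percentile of 4.67 to 73, with a median over arrays of 14.9. Cd3e stood at 9.05 to 62.6 (median 24.5) and Cd3g at 0.704 to 55.2 (median 33.8), so each CD3 chain stood above the middle of the array in at least 1 aly sample. The medians were 60.6 for Cd79a, 79.8 for Cd79b, 85.8 and 74.8 for the Ms4a1 probe sets and 52.7 and 19.4 for those of Pax5. Of 4 DC genes read as a check of the sort, Itgax (CD11c) stood at 85 to 98.5, Flt3 at 86.8 to 96.2 and the MHC class II chain H2-Ab1 at 99.4 or above. The DC transcription factor Zbtb46 stood at 82.3 to 95.4 on 11 arrays, but at 44.9 on treated aly replicate 1, where it read 44 and the array median was 53.4. The chemokine receptor Xcr1, a marker of 1 DC subset, read below the 40th percentile on treated WT replicate 3 (1.9) and treated aly replicate 1 (32.8).

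**Figure D2:**
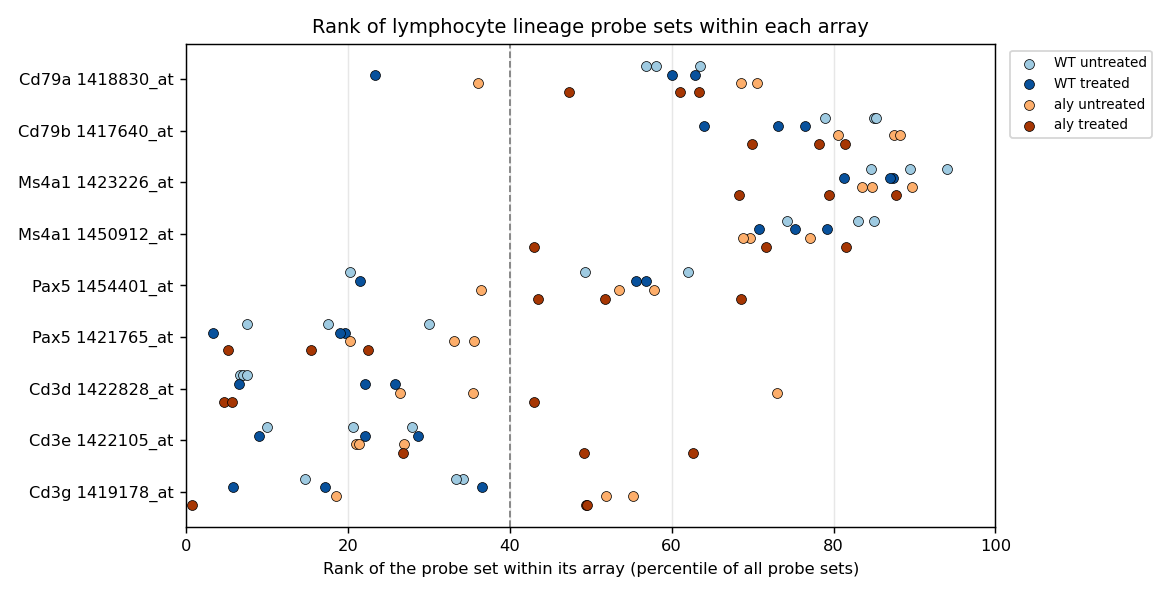
Rank of each lymphocyte lineage probe set within its array, as a percentile of all 45101 probe sets, for the 12 arrays coloured by group. The dashed line is the 40th percentile used by the filter, which Cd3d and Cd3e passed on 2 arrays each and Cd3g on 4, all of them aly arrays, and which Cd79b and Ms4a1 passed on all 12.

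Tests were run on probe sets that exceeded the 40th percentile of the array in 3 or more samples, and 6 of the 9 lymphocyte probe sets did. Cd3d, Cd3e and the dimmer probe set of Pax5 did not. Cd3g passed through 4 aly arrays and no WT array, so a difference by genotype was favoured by its selection. The 6 were tested with limma among 34205 probe sets on log2(intensity + 16), with p-values adjusted by Benjamini and Hochberg over all of them within a comparison and a threshold of 0.05. The ± after a log2 change is its standard error in this fit (n = 3 arrays per group). The added 16 exceeds most CD3 readings, which makes their log2 changes small.

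In WT DCs the estimated change with treatment was below 0 for all 6 tested probe sets, but none passed the threshold. Cd79b had the largest change on the log2 scale, with 254 ± 76.3 in untreated and 89 ± 46.6 in treated samples (mean ± SD, n = 3 each). Its log2 change was -1.42 ± 0.44 (95% interval -2.34 to -0.50, a 2.67-fold difference) with adjusted p = 0.0626 by limma. Within the spike-in batches the difference was -1.60 in replicate 1 and -1.33 in replicates 2 and 3. The call changed with the fit. The adjusted p was 0.0228 with only the WT arrays fitted, 0.00618 with array weights, 0.0197 without treated aly replicate 1, 0.0396 without treated WT replicate 2 and 0.0194 with RNA quality as a covariate. The share of all tested probe sets called in those fits was 14.2%, 16.6%, 13.4%, 6.36% and 12.9%, in the same order, so that in 4 of the 5 the calls rose over the whole array. Over all 24 alternatives the log2 change was between -1.74 and -1.06, and the highest adjusted p, 0.324, was reached without treated WT replicate 3. In bulk samples, fewer cells of a type and less RNA per cell cannot be told apart.

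The other B cell genes moved less. For Ms4a1 the log2 changes in WT were -0.80 ± 0.50 (adjusted p = 0.449) and -0.78 ± 0.50 (adjusted p = 0.464) by limma on its 2 probe sets, from means of 566 ± 332 to 295 ± 96.2 and of 215 ± 95.8 to 116 ± 50.6. Cd79a gave -0.38 ± 0.46 (95% interval -1.36 to 0.60) and Pax5 -0.06 ± 0.50 (-1.12 to 1.00). Cd3g, at 8.5 ± 5.32 and 5.43 ± 5.92, gave -0.20 ± 0.46 (-1.17 to 0.76). By limma 0 of 6 were called, where 6.54% of all tested probe sets were, and 1 of 6 had an unadjusted p under 0.05, where 18.8% did. The arrays of the 2 groups did not overlap for 1 of the 6 probe sets (Cd79b), against 31.5% of all tested. The median log2 change was -0.58 over the 6 and -0.07 over all tested probe sets.

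In aly DCs 5 of the 6 estimated changes with treatment were below 0 and none passed the threshold. Cd79b read 319 ± 107 in untreated and 155 ± 53.7 in treated samples, a log2 change of -0.96 ± 0.44 (95% interval -1.89 to -0.04, adjusted p = 0.427 by limma). Within the spike-in batches this difference was -1.74 in replicate 1 and -0.57 in replicates 2 and 3. The first contains treated aly replicate 1, the array of lowest RNA quality, and without it the change was -0.72. Ms4a1 gave -0.74 ± 0.50 on the brighter and -0.03 ± 0.50 on the dimmer probe set. The remaining estimates were -0.16 ± 0.46 for Cd79a, -0.32 ± 0.46 for Cd3g and 0.26 ± 0.50 for Pax5. By limma 0 of 6 were called (0.275% of all tested probe sets), 1 of 6 had an unadjusted p under 0.05 (11.5% of all) and 0 of 6 had separated arrays (13.1% of all). Their median was -0.24, against 0.01 over all.

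**Figure D3:**
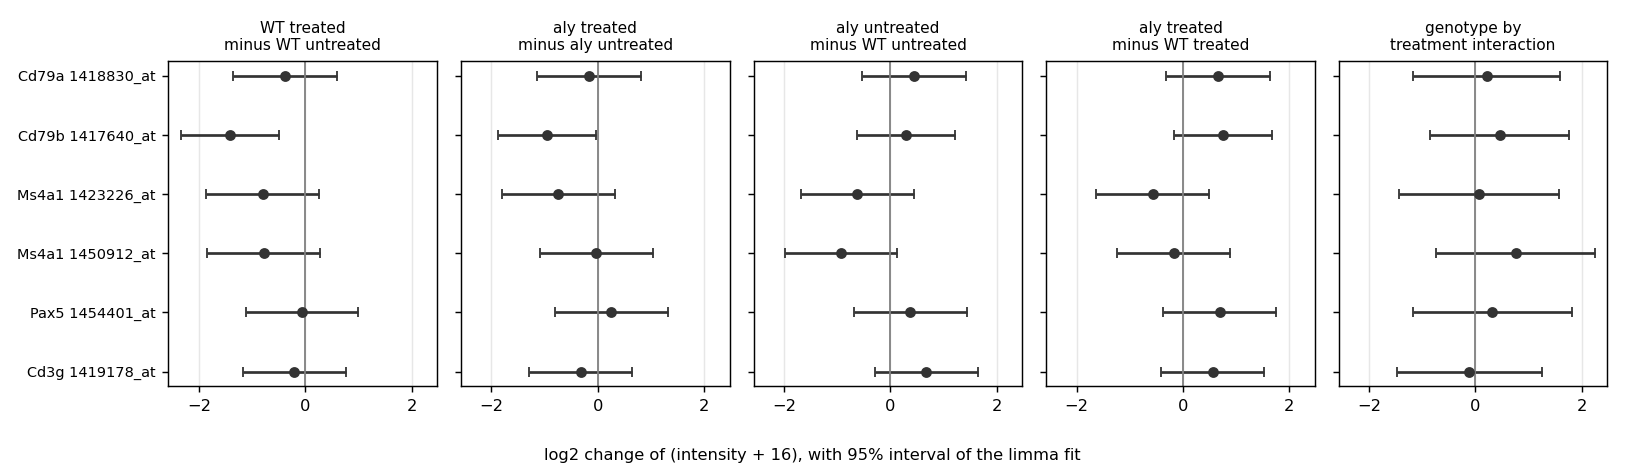
Log2 change of (intensity + 16) with its 95% interval from the limma fit, for the 6 tested lymphocyte probe sets in 5 comparisons (n = 3 arrays per group). The intervals of Cd79b exclude 0 in the treatment comparisons of WT (-2.34 to -0.50) and aly (-1.89 to -0.04), though neither is called after adjustment, and all other intervals include 0.

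Between the genotypes no lymphocyte probe set was called. Among untreated DCs the estimates of aly minus WT were 0.30 ± 0.44 for Cd79b, 0.44 ± 0.46 for Cd79a, 0.38 ± 0.50 for Pax5 and 0.68 ± 0.46 for Cd3g. Ms4a1 lay in the other direction, at -0.62 ± 0.50 (95% interval -1.69 to 0.44) and -0.93 ± 0.50 (-1.99 to 0.13). By limma 0 of 6 were called (0.371% of all tested), 0 of 6 had an unadjusted p under 0.05 (9.52% of all), and 0 of 6 had separated arrays (20.7% of all). The smallest adjusted p was 0.588, that of Ms4a1.

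Among treated DCs, aly minus WT was 0.76 ± 0.44 for Cd79b (95% interval -0.17 to 1.68), 0.66 ± 0.46 for Cd79a, 0.69 ± 0.50 for Pax5 and 0.56 ± 0.46 for Cd3g. Ms4a1 was at -0.56 ± 0.50 and -0.17 ± 0.50. By limma 0 of 6 were called (3.79% of all tested), 0 of 6 had an unadjusted p under 0.05 (20.8% of all) and 0 of 6 had separated arrays (22.7% of all). All tested probe sets had a median of 0.21 in this comparison as deposited and of -0.14 with arrays centred on their medians, which is the shift against which the estimates stand. Among untreated DCs the same medians were 0.11 and -0.14.

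The genotype by treatment interaction compares the response of aly with that of WT. Its estimates ran from -0.12 ± 0.65 for Cd3g to 0.75 ± 0.71 for the dimmer probe set of Ms4a1, with 0.46 ± 0.62 for Cd79b (95% interval -0.85 to 1.76, adjusted p = 0.915 by limma). By limma 0 of 6 were called (0.0497% of all tested probe sets) and 0 of 6 had an unadjusted p under 0.05 (7.22% of all). The smallest adjusted p was 0.866. The interval of Cd79b leaves room for a response in aly that is equal to, weaker than or stronger than that in WT. Ordered by mean, Cd79b was highest in untreated aly (319), followed by untreated WT (254), treated aly (155) and treated WT (89), and neighbours in this order overlapped.

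Among the 3 probe sets below the filter, 2 had separated arrays in some comparison. Cd3d was higher in untreated aly (8.7 to 105.1) than in untreated WT (1.3 to 1.7), and its ranks within the array were separated too, at 26.5 to 73 against 6.67 to 7.58. Without a filter its log2 change was 1.37 ± 0.49 with adjusted p = 0.398 by limma. Cd3e was higher in treated aly (14.4 to 51.2) than in treated WT (1.6 to 8.5), with a log2 change of 1.06 ± 0.34 and adjusted p = 0.116 without a filter. It was also above untreated aly (5.5 to 12), with 0.87 ± 0.34 and adjusted p = 0.448. The ranks of Cd3e overlapped in both comparisons, at 26.8 to 62.6 in treated aly, 9.05 to 28.7 in treated WT and 20.9 to 26.9 in untreated aly. Over all 9 probe sets the intensities of 1 were separated in each of the 4 comparisons, against 26.4%, 11.6%, 18.5% and 19.9% of 45037 probe sets without a filter (treatment in WT, treatment in aly, genotype untreated, genotype treated).

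Other lymphocyte genes were read from lists beside these members. Of 18 measured B cell genes in WT, 1 rose and 2 fell with treatment, where 3.82% of all tested probe sets rose and 2.72% fell, and the median log2 change was -0.30 (-0.07 over all). Bank1, a B cell scaffold protein, read 649.4, 335.1 and 432.7 on untreated and 115.1, 166.7 and 34.4 on treated WT arrays. Its change was -2.15 ± 0.55 (4.43-fold, adjusted p = 0.0245 by limma). The call was lost in 6 of 23 alternatives. These were an offset of 1, arrays centred on their median, and omission of untreated WT replicate 1 or 3 or treated WT replicate 1 or 3 (adjusted p up to 0.174). Fcrla, an Fc receptor-like protein of B cells, fell by 1.60 on the log2 scale (SE 0.47, adjusted p = 0.0492 by limma), from 93.8 ± 50 to 17.2 ± 3.12. This call was lost in 13 of 23 alternatives, and the other probe sets of Fcrla gave -0.94 and -0.25. The B cell inhibitory receptor Cd22 gave -1.90 ± 0.65 (adjusted p = 0.0969), and immunoglobulin mu (Ighm), read by a probe set that can match several related transcripts, -0.55 ± 0.54 (adjusted p = 0.692).

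The risen B list gene was Cxcr5, the chemokine receptor that guides cells to B cell follicles. It read 33.8, 30.2 and 29.4 on untreated and 459.6, 433.5 and 558.8 on treated WT arrays, a change of 3.40 ± 0.36 (10.6-fold, adjusted p = 1.57e-05 by limma). Its direction was opposite to that of Bank1 and Fcrla, and it is known from activated DCs and T cells as well. In aly samples Cxcr5 read 24.1, 14.6 and 46.6 untreated and 120, 88.8 and 102.5 treated. It was lower in treated aly than in treated WT (-2.06 ± 0.36, adjusted p = 0.00635 by limma, and 0.062 without treated WT replicate 3). This call was lost with an offset of 1 as well. Limma called 0 of the 18 B list genes in the treatment comparison of aly, the untreated genotypes and the interaction, where 4, 2 and 1 of them had an unadjusted p under 0.05 (11.5%, 9.52% and 7.22% of all probe sets). Between treated genotypes 5 of 18 did (20.8% of all), of which Cxcr5 was called. The others were not called. Cd72 (1.56), Blnk (1.41) and Bank1 (1.72) were higher in treated aly, with adjusted p = 0.0607, 0.0687 and 0.0871 by limma. Cr2 was lower (-1.36, adjusted p = 0.139). Between untreated genotypes the 2 genes were Blnk (1.59, adjusted p = 0.136 by limma) and Cr2 (-1.13, adjusted p = 0.495).

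**Figure D4:**
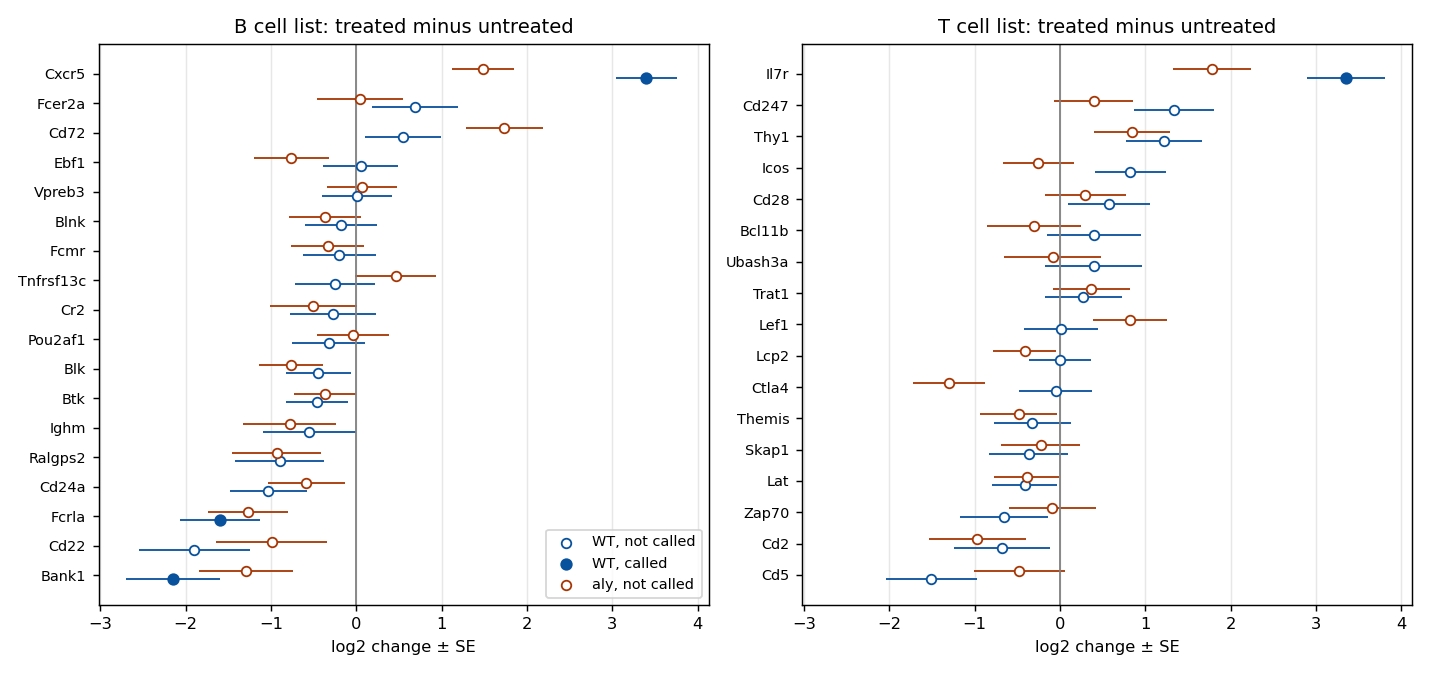
Log2 change with treatment (± SE, limma, n = 3 arrays per group) of the 18 tested genes of the B cell list and the 17 of the T cell list, in WT (blue) and aly (brown), with filled points for adjusted p under 0.05. In WT, Cxcr5 (3.40) and Il7r (3.35) stand at the top of their lists and Bank1 (-2.15) and Fcrla (-1.60) are called lower, while no gene of the lists is called in aly.

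Of 17 tested T cell genes 1 rose with treatment in WT and none fell, where 3.82% of all tested probe sets rose and 2.72% fell. The list median was 0.01 (-0.07 over all), and 4 of 17 had an unadjusted p under 0.05 (18.8% of all). In aly limma called 0 of the 17, and 2 had an unadjusted p under 0.05, near the 11.5% of all probe sets. The gene that rose was Il7r, the interleukin 7 receptor chain, which read 186.2, 329.5 and 209.4 on untreated and 1824.3, 2072.5 and 4320.7 on treated WT arrays (3.35 ± 0.46, 10.2-fold, adjusted p = 0.000173 by limma, other probe set 3.04). Il7r is carried by T cells and is also known from activated DCs. Cd247, the zeta chain of the T cell receptor complex, gave 1.34 ± 0.47 (adjusted p = 0.103), and the T cell surface protein Cd5 gave -1.51 ± 0.53 (adjusted p = 0.111). In treated samples Il7r was lower in aly than in WT (-2.08 ± 0.46, adjusted p = 0.0187 by limma, 0.154 without treated WT replicate 3, and 0.235 with the 3' over 5' ratio as a covariate). This call was lost with an offset of 1 as well. The adaptor of the T cell receptor Lat was higher in treated aly (27.9, 56.3 and 33.8) than in treated WT samples (3.7, 2.5 and 1.5).

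For Lat the change was 1.54 ± 0.38 (adjusted p = 0.0324 by limma), lost in 9 of 23 alternatives (adjusted p = 0.167 without treated WT replicate 3, and 0.0753 with the 3' over 5' ratio as a covariate). Offsets of 1 and 64, arrays centred on their median and quantile normalization were among the settings that lost the call. Lat exceeded the 40th percentile on 5 aly arrays and 1 WT array, so its selection by the filter favoured a difference between genotypes. Lat also read 54.4, 48.1 and 62.5 in untreated aly and 2.3, 24.7 and 4.2 in untreated WT samples (1.52 ± 0.38, adjusted p = 0.114). In untreated samples limma called 0 of the 17 T list genes between the genotypes, and 2 of 17 had an unadjusted p under 0.05 (9.52% of all probe sets). The list median was 0.65 there, against 0.11 over all. Lat was not the only list gene that passed the filter mainly through aly arrays. Skap1 exceeded the 40th percentile on 6 aly and 3 WT arrays, and Cd28 and Ubash3a on 3 and 1. Cd2, Cd5 and Ctla4 did so on 4 aly and 5 WT arrays. For genes such as Skap1 the filter favoured higher readings in aly, so this median is not free of the selection. Between treated genotypes 6 of 17 had an unadjusted p under 0.05 (20.8% of all), and 2 were called, Il7r and Lat (3.79% of all). That list median was 0.21, as over all. Low readings were higher on aly arrays, and the part of this in the T list was not tested. Higher Lat in aly stood beside higher levels of red pulp macrophage genes, whose summed intensity over 10 genes was 37710 to 60551 in untreated and 27295 to 52759 in treated aly samples. It was 2363 to 15340 in untreated and 2354 to 13729 in treated WT samples, and 5 of 10 were called higher in untreated and 4 of 10 in treated aly, against 0.371% and 3.79% of all probe sets called in either direction. Each of these 9 calls was lost in at least 1 omission of an array (largest adjusted p between 0.0887 and 0.236). All 9 were also lost with an offset of 1, and the 5 untreated ones with arrays centred on their median. Between untreated genotypes those 2 settings called 0 of all tested probe sets. With the 3' over 5' ratio as a covariate the treated calls of C1qa and C1qb, chains of complement C1q, were lost too (adjusted p = 0.301 and 0.415). Of 4 tested erythroid genes 1, the anion exchanger Slc4a1, was called higher in aly, untreated and treated (adjusted p = 0.0168, up to 0.175 with 1 array left out, and 0.00193). It exceeded the 40th percentile on 6 aly arrays and 2 WT arrays, so it too passed the filter through aly arrays. The untreated call of Slc4a1 was lost with an offset of 1 and with arrays centred on their median as well. The part of these cells in the lymphocyte readings was not tested.

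Signalling genes around the receptors were read as lists too. Of 8 tested genes of B cell receptor signalling, limma called 0 in any of the 5 comparisons, and 0 to 2 of the 8 had an unadjusted p under 0.05 in each. Over all tested probe sets the unadjusted share was 18.8% with treatment in WT and 11.5% with treatment in aly. It was 9.52% and 20.8% between untreated and treated genotypes, and 7.22% in the interaction. Of 10 tested genes of T cell receptor signalling, Fyn, a Src family kinase related to Lck, rose with treatment in WT from 546 ± 127 to 2073 ± 118 (1.92 ± 0.36, 3.78-fold, adjusted p = 0.00325 by limma), and Lat differed as described. By limma 5 of these 10 had an unadjusted p under 0.05 with treatment in WT and 3 with treatment in aly. Between untreated and treated genotypes 2 and 3 of the 10 did, and 1 did in the interaction. Of 12 tested DC identity genes in WT, 1 rose (Irf4, 1.29 ± 0.35, adjusted p = 0.0331, lost in 9 of 23 alternatives) and 1 fell (Xcr1, -3.98 ± 0.73, adjusted p = 0.00243). With treatment in WT 3.82% of all tested probe sets rose and 2.72% fell. Irf4 was lower in treated aly than in treated WT samples (-2.72 ± 0.35, adjusted p = 0.00103 by limma).

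The genes whose pattern over the 12 arrays was most like that of the members were sought among 15019 genes with 1 probe set each, as a description with no test. The mean log2 profile of the 4 B cell genes was closest to Nob1 (Pearson r = 0.90), Acvrl1 (0.90), Crls1 (0.89), Gm2629 (0.88) and Mettl16 (0.87). None of these 5 is in the B or T cell lists. The mean profile of Cd3d, Cd3e and Cd3g was closest to Ugt2b38 (r = 0.92), Gm6297 (0.89), Lyzl4 (0.89), Tmem178 (0.88) and Gm15417 (0.88). Group means were 2 to 15.3 for Ugt2b38, 7.3 to 17.6 for Gm6297 and 1.67 to 24.9 for Lyzl4. Those of Tmem178 were 1.73 to 93 and those of Gm15417 were 22.6 to 50.8. The 40th percentile of the arrays was 14.1 to 34.8, so many of these readings were low, and the part of background in r was not tested. Among the members, the 2 Ms4a1 probe sets ran together over the 12 arrays (Pearson r = 0.91), whereas Cd79a and Cd79b, the chains of 1 receptor, gave r = 0.50, and Cd3d, Cd3e and Cd3g gave 0.12 to 0.60 among each other. The arrays share their genotype and treatment groups and the batches, so these values describe the 12 arrays and carry no p.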

How the data were processed

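Gene expression was measured on 1-colour oligonucleotide arrays in 12 samples of sorted splenic DCs. Per the labels' protocols, RNA was extracted with a Qiagen kit and labelled in a second round of in vitro transcription. The unit of the deposited values is intensity, 1 linear value per probe set, and the authors' tools and background step are not named in them or in the labels. All 12 arrays shared a mean of 150.001 after trimming 2% of the values at each end, which fits a scaling to 1 target. The number of arrays limits the precision.

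Probe sets were named from the platform annotation (34958 probe sets with 1 symbol, 932 with several and 9211 with none), and none with several was named. All columns were matched (0 unmatched). Control probe sets (64) were left out of the tests. Values were log2 transformed after adding 16 and fitted in limma 3.58.1 (R 4.3.3) with 1 mean per group over all 12 arrays (8 residual degrees of freedom, prior 9.51). The median standard error was 0.44 log2 units, and 0.62 in the interaction. The code was tested on simulated data with known changes.

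The members and lists, the filter, the offset and the alternatives were chosen with earlier results of these data known. Named genes are all member probe sets, up to 4 list genes of smallest p per comparison, 4 DC identity genes and the 5 genes most like each profile. Ighm and Fcrla's other probe sets were added after their values were seen. A gene of a list stands for its probe set of highest mean. Each array held a pool of mice, so the p-values rest on the spread between arrays. This spread holds differences between pools together with technical ones, such as RNA quality and the spike-in batch. No arrays held identical values (0 pairs). Same-numbered replicates were checked for pairing, and they did not meet the rule for a pairing (every correlation over 0.1), so the fit has no replicate block.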

Additional observations from a re-analysis of the deposited data

How the results depend on the processing

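In WT the number of lymphocyte probe sets called with treatment was 0 and became 1, Cd79b, with array weights, with the 3' over 5' ratio as a covariate and with only the WT groups fitted, where 16.6%, 12.9% and 14.2% of all probe sets were called (6.54% as reported), and it ran from 0 to 1 when single arrays were left out. In the other 4 comparisons it was 0 in every alternative tried. Replicate numbers did not meet the rule for a pairing: the correlation of deviations ran from -0.022 to 0.297 over 18 same-numbered pairs, with 7 over 0.1. Still, 9 of 12 arrays correlated best with an array of their own number, which is a hint from the data and not from the design. With the replicate block Cd79b kept -1.42 in WT (adjusted p = 0.0716 by limma), and 0 lymphocyte probe sets were called in each comparison. Of all tested probe sets this fit called 7.57% with treatment in WT and 0.371% with treatment in aly. Between untreated and treated genotypes it called 0.684% and 5.66%, and in the interaction 0.0789%.

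Of 709 single probe set values under an alternative, 648 kept their direction and side of the threshold, 5 were Cd79b passing it, and 56 changed sign, none of them called in any setting. In WT treatment, Pax5 was 0.0011 with quantile normalization. In aly treatment the dimmer Ms4a1 probe set was 0.023 with an offset of 64. Replicates 2 and 3 alone gave 0.021 for Cd79a, 0.18 for Cd3g, 0.37 for the dimmer Ms4a1 and -0.25 for Pax5. Array weights gave 0.24 for Cd3g, 0.30 for the dimmer Ms4a1 and -0.23 for Pax5, and the covariate gave 0.040, 0.57 and -0.28. Between untreated genotypes the covariate gave -0.059 for Pax5. Between treated genotypes the dimmer Ms4a1 was 0.28 in replicates 2 and 3, 0.069 with weights and 0.91 with the covariate, which also gave 0.38 for the brighter Ms4a1 and -0.29 for Pax5. In the interaction Cd3g was 0.10 with an offset of 1, 0.51 in replicates 2 and 3, 0.46 with weights and 0.25 with the covariate. The brighter Ms4a1 was -0.035 centred and -0.14 quantile normalized, Cd79a was -0.011 with weights, and Pax5 was -0.022 in replicates 2 and 3, -0.18 with weights and -0.23 with the covariate. The causes were not tested.

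Leaving out single arrays moved Cd79a from -0.71 to 0.11 and Pax5 from -0.49 to 0.34 in WT treatment. In aly treatment Cd79a ran from -0.62 to 0.10, Cd3g from -0.78 to 0.066, the dimmer Ms4a1 from -0.54 to 0.46 and Pax5 from -0.26 to 0.56. Pax5 ran from -0.052 to 0.77 between untreated genotypes, and the dimmer Ms4a1 from -0.69 to 0.32 between treated genotypes. In the interaction Cd3g ran from -0.58 to 0.27, the brighter Ms4a1 from -0.43 to 0.48, Pax5 from -0.20 to 0.74 and Cd79a from -0.28 to 0.55. Over the alternatives the calls among all probe sets ran from 920 to 5678 in WT treatment, 2 to 181 in aly treatment, 0 to 867 and 20 to 4165 between untreated and treated genotypes, and 0 to 372 in the interaction. Of the calls between treated genotypes, 608 of 1297 were higher in aly as deposited, 165 of 1092 with arrays centred on the median and 444 of 1181 after quantile normalization. Signal near background limits the CD3 readings.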

Other observations

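Some markers of 3 other cell types that the gate could hold also changed in WT DCs, while most genes of these lists were not called. With treatment in WT, 3.82% of all probe sets rose and 2.72% fell. Of 9 tested plasmacytoid DC genes 3 rose with treatment, namely Bst2 (a surface protein induced by interferon, 2.66 on the log2 scale), the Ets factor Spib (3.03) and Tcf4 (1.17), and the chemokine receptor Ccr9 fell (-2.61). By limma their adjusted p were 0.00206, 0.000152, 0.0465 and 0.006, and the call of Tcf4 was lost in 13 of 23 alternatives. The median of this list was 0.47 (-0.07 over all). The marker Siglech was not called, at 27.6 ± 5.71 in untreated and 10.8 ± 13.8 in treated WT samples (mean ± SD). Of 6 tested plasma cell genes 1 rose, the transcription factor Prdm1 (3.05, adjusted p = 0.00135 by limma). The median of that list was -0.52. Its other genes were not called, with Jchain at -1.22, Xbp1 at -0.59, Derl3 at -0.58, Mzb1 at -0.47 and Sdc1 at 1.35. Of 9 tested NK cell genes 2 rose, the granzyme Gzma (3.41, adjusted p = 0.0169, lost in 7 of 23 alternatives) and the T-box factor Tbx21 (2.04, adjusted p = 0.0138, lost in 5 of 23). The median of the NK list was 1.10, and Klrd1 lay in the other direction (-1.37 ± 0.70, adjusted p = 0.315 by limma). Limma called 0 genes of these 3 lists with treatment in aly, where 3, 1 and 3 had an unadjusted p under 0.05 (11.5% of all probe sets). In treated samples Prdm1 (-3.00, adjusted p = 0.00608), Spib (-2.49, adjusted p = 0.00451), Tcf4 (-1.45, adjusted p = 0.0256) and the NK receptor Klrk1 (-1.60, adjusted p = 0.0432) were lower in aly than in WT by limma, where 2.01% of all probe sets were. Each of these 4 calls was lost in at least 1 omission of a single array, with a largest adjusted p of 0.0597, 0.0528, 0.114 and 0.193. With the 3' over 5' ratio, which differs by genotype, as a covariate, those of Prdm1, Tcf4 and Klrk1 were lost as well (adjusted p = 0.108, 0.129 and 0.271). Several of these genes are also transcribed by activated conventional DCs.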
